A study of Mus musculus with 12 samples.

Results

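Levels of 9 imprinted genes were followed through 12 organoid libraries: Rian, Meg3, Mirg, Dlk1, H19, Igf2, Peg3, Plagl1 and Grb10. They were chosen by symbol, with Rian as the leading gene, on their CPM (read counts scaled to library size) across the 4 groups of genotype and liver region in these same libraries. Their levels and differences are therefore given as a description with no test. All 9 were found among the 53700 gene rows of the raw count table. Of these, 6 had enough counts to enter the comparisons over 15014 genes: Rian, Meg3, Igf2, Peg3, Plagl1 and Grb10. Mirg (6 counts in all 12 libraries together), H19 (36 counts) and Dlk1 (56 counts) did not.

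Imprinted genes are expressed mainly from 1 parental allele, and the parental alleles differ in DNA methylation laid down in the germ line. Dlk1, Meg3, Rian and Mirg lie in that order in 1 imprinted cluster, with Dio3 at its far end. Meg3, Rian and Mirg are long noncoding RNAs made from the maternal allele on the same strand, Rian being host to C/D box small nucleolar RNAs and Mirg to microRNAs, while Dlk1 and Dio3 are made from the paternal allele. H19, a maternal noncoding RNA, and Igf2, a paternal growth factor, share another cluster, where CTCF binding at a common control region separates their use of enhancers. Many of these genes are strongly expressed in fetal liver and are turned down after birth. The counts used here do not separate the parental alleles, so they give levels and say nothing of imprinting status.

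The cells were intrahepatic cholangiocyte organoids, cultures of bile duct epithelium grown in Matrigel domes, and RNA was taken at passage 5 with no treatment. They came from 3 wild-type mice (Jag1 +/+, here WT; mice 1221, 1223 and 1225) and from 3 mice homozygous for the Nodder allele (Jag1 Ndr/Ndr, here Ndr; mice 1219, 1220 and 1224), used as a model of Alagille syndrome, in which bile ducts fail to form properly. Jag1 is a ligand of Notch receptors, and Ndr is a missense allele, so its RNA level does not check the genotype labels. From every animal, 1 culture was started from hilar tissue, where the large ducts leave the liver, and 1 from peripheral tissue, so each of the 4 groups (WT hilar, WT peripheral, Ndr hilar and Ndr peripheral) held 3 libraries from 3 mice. The age and sex of the animals are not used here. Library totals ran from 6708822 to 16030880 counts, and 1 read was worth 0.0610 to 0.154 CPM.

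The 11 cholangiocyte markers of a set list, which includes Epcam, Krt19 and Sox9, summed to between 11600 and 21980 CPM per library. Spp1 (mean 5191 CPM over 12 libraries) and Krt18 (2576 CPM) were the largest parts. The single markers were not even across groups. Krt19 averaged 431.3 CPM in Ndr hilar and 1895 CPM in Ndr peripheral organoids, Krt8 1068 and 2412 CPM, and Spp1 7362 and 3895 CPM. Of the 11, 4 had a positive hilar minus peripheral difference in Ndr organoids (36.4%, against 48.7% of all tested genes). Endothelial markers (6 genes) summed to at most 0.5299 CPM. Of the 13 fibroblast and stellate markers, Dcn, Lum and Thy1 were at 0 counts in every library, and Col1a2, Col3a1 and Des were each detected in 1 library. Col1a1 was detected in every library, at up to 1.787 CPM, and Rgs5 in all but 1, at up to 5.785 CPM. Reln accounted for most of the sum on average but not in every library, being 1.22 of 3.11 CPM in WT hilar 1221.

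The promoter windows of Rian, Meg3 and Peg3, which stood higher in the hilar culture of every Ndr mouse, are shown first, because CpG dinucleotides are where the methylation of imprinted genes is written. RefSeq windows on GRCm38.p6, from 250 bases before to 50 after a transcript start, were matched by symbol for 8 of the 9 genes, 13 windows in all; H19 was not matched. The counts were made on GRCm39, so these positions are those of the windows only. The windows are placed by annotated starts, and whether any of them, that of Rian included, acts as a promoter in these cells was not tested. Below, CG dinucleotides are in capitals and everything else is in lower case, 5′ to 3′ on the strand of the gene: Rian at chr12:109603695-109603994 (plus strand), Meg3 at chr12:109540746-109541045 (plus strand) and Peg3 at chr7:6730370-6730669 (minus strand).
Rian: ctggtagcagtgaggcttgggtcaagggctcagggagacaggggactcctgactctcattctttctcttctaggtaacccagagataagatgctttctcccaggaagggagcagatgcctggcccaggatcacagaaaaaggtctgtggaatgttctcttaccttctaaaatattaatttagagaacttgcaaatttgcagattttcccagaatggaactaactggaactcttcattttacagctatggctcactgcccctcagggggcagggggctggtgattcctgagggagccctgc
Meg3: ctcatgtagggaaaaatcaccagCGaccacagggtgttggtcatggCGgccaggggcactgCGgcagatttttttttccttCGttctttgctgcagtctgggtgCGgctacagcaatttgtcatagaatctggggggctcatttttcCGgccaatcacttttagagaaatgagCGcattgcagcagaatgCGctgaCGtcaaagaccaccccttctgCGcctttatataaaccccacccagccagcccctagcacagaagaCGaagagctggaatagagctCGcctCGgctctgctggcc
Peg3: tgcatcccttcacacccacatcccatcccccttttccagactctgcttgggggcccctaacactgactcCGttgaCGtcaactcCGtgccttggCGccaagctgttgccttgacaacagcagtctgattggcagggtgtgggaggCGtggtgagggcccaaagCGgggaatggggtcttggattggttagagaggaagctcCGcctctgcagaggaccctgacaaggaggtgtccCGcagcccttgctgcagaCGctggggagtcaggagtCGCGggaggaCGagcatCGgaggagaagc
The Rian window held 0 CpG dinucleotides, whereas the windows of Meg3 and Peg3 held 13 each. The median over all 32851 windows of 300 bases was 7, with quartiles of 3 and 20. A second Meg3 window, at a start farther into the gene, held 1. Igf2, which also stood higher there, has 4 alternative starts and is not shown; its windows held between 2 and 24 CpG dinucleotides, the 2 Grb10 windows 9 and 45, and the Plagl1 window 26. The Dlk1 window held 9 and the Mirg window 10. The motif TGACGTCA, the palindromic cAMP response element, which reads the same on both strands, was found once in the Meg3 window shown, starting 57 bases upstream of the start, and once in the Peg3 window, starting 178 bases upstream. It was in no Igf2 window and in 2 of the 13 windows, both shown here, and in 1.79% of all windows. A match is a description of the letters and not a binding site.

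**Figure D1:**
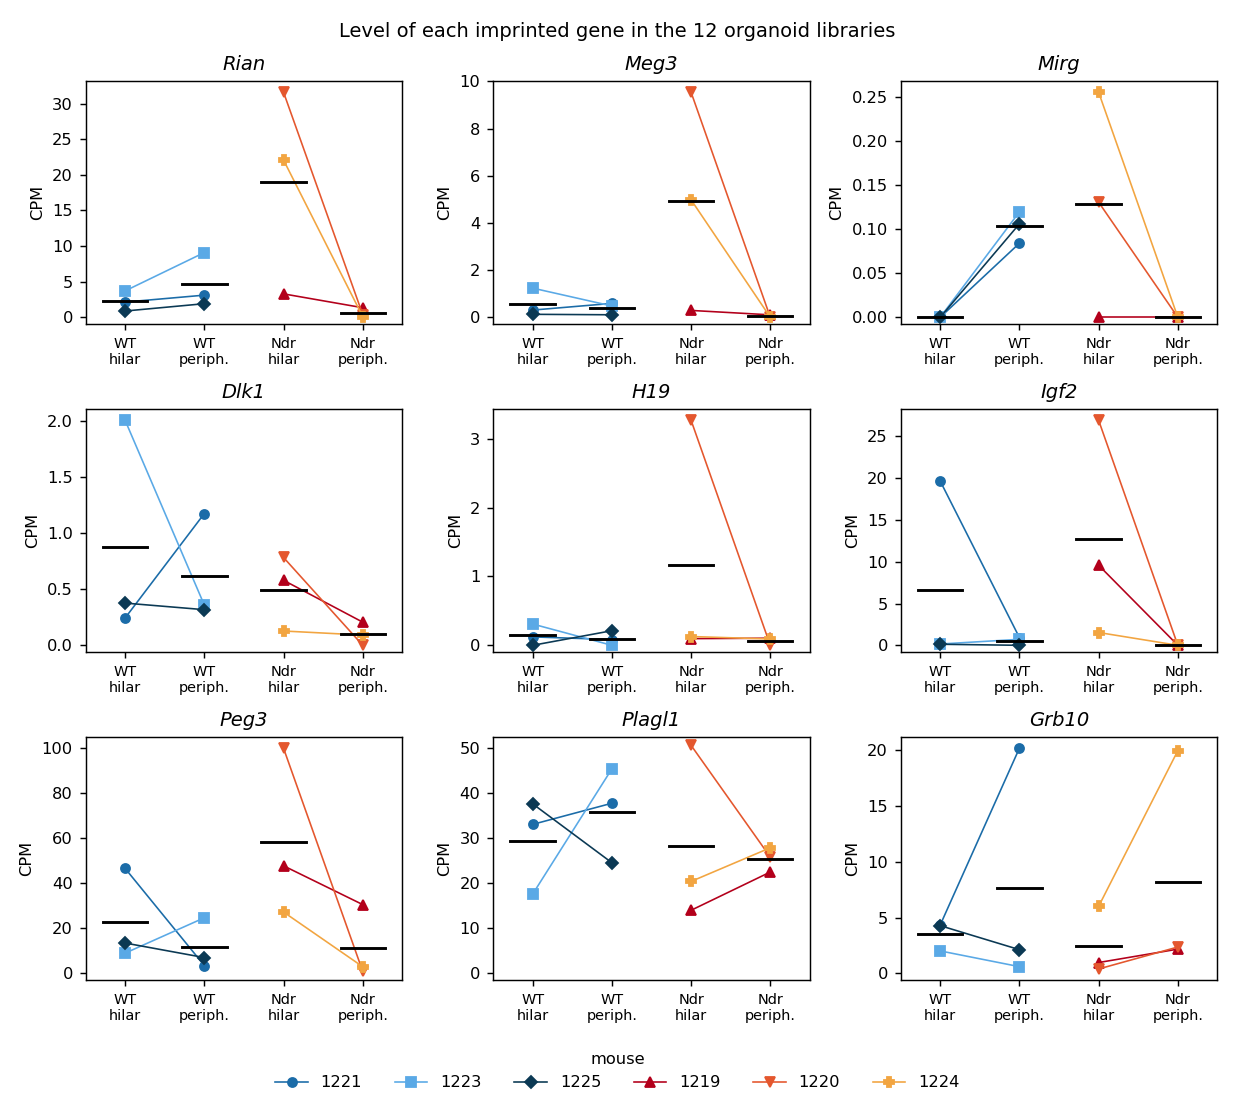
Level (CPM, linear axis, a separate scale per gene) of the 9 imprinted genes in the 4 groups. Each point is 1 library, lines join the hilar and peripheral cultures of the same mouse, and black bars are group means of 3 libraries. Rian and Meg3 have their 2 highest libraries in Ndr hilar organoids (mice 1220 and 1224), and Igf2 is at 0 in all 3 Ndr peripheral libraries.

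Rian RNA was most abundant in hilar organoids of Ndr mice and least abundant in peripheral organoids of the same mice. In the WT hilar organoids of mice 1221, 1223 and 1225 it stood at 2.13, 3.71 and 0.879 CPM. In their peripheral organoids it stood at 3.11, 9.09 and 1.91 CPM. In the Ndr hilar organoids of mice 1219, 1220 and 1224 it stood at 3.29, 31.6 and 22.1 CPM, and in the Ndr peripheral organoids at 1.343, 0.377 and 0.0915 CPM. Mice 1220 and 1224 carried the highest hilar and the lowest peripheral values of all 12 libraries, while mouse 1219 lay within the WT range in the hilar culture and just below it in the peripheral one. The order of the group means was Ndr hilar (19 ± 14.4 CPM, SD, n = 3), WT peripheral (4.70 ± 3.85), WT hilar (2.24 ± 1.42) and Ndr peripheral (0.604 ± 0.656). Ndr hilar overlapped both WT groups, and the WT groups overlapped each other; both Ndr hilar and WT peripheral lay above Ndr peripheral in every library, as did 7.49% and 3.61% of the 15014 tested genes, and WT hilar overlapped it.

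Between the regions of Ndr organoids, the Rian mean was 31.5 times higher in hilar cultures, a log2 difference of 4.97 ± 1.08 (SE). In WT organoids the hilar value was the lower one in all 3 mice, and the log2 difference was -1.07 ± 0.93. In hilar organoids the Ndr mean was 8.48 times the WT mean, with a log2 difference of 3.09 ± 0.97 and an overlap of 1 library, that of mouse 1219. In peripheral organoids the WT mean was 7.79 times the Ndr mean, and the log2 difference of Ndr minus WT was -2.95 ± 1.03. The difference between the region effects was 6.04 ± 1.41. Without the Ndr peripheral library of mouse 1219 the region difference in Ndr organoids was 6.27, and without the Ndr hilar library of mouse 1220 it was 4.43. The region difference in WT organoids came to -0.18 without WT peripheral 1223. The genotype difference in peripheral organoids came to -4.26 without Ndr peripheral 1219 and to -2.09 without WT peripheral 1223. The difference between the region effects ran from 5.18 (without WT peripheral 1223) to 7.34 (without Ndr peripheral 1219).

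Derivation dates bear on this comparison. Cultures were started on 15 June (mice 1221 and 1223), 17 June (1219), 18 June (1220) and 21 June (1224 and 1225). Only on 21 June were cultures of both genotypes started, from mice 1224 (Ndr) and 1225 (WT). Between that pair, Rian in hilar organoids was 22.1 CPM in the Ndr mouse and 0.879 CPM in the WT mouse. In peripheral organoids it was 0.0915 CPM in the Ndr mouse and 1.91 CPM in the WT mouse. Both differences point the same way as those of the group means. With 1 mouse per genotype there is no replicate at that date. The other dates each hold 1 genotype. A fit with the date as a factor therefore takes its genotype difference, averaged over the regions, from mice 1224 and 1225 alone. It is no separate check on that pair. With the date as a factor in the fit, the genotype difference of Rian was 4.07 in hilar and -1.89 in peripheral organoids on the log2 scale, against 3.09 and -2.95 without it. That of Meg3 was 4.94 and -1.10 against 3.21 and -3.18, and that of Igf2 in hilar organoids was 3.52 against 0.89.

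Meg3, the noncoding RNA that lies just upstream of Rian, was less abundant in the Ndr hilar group and followed the same libraries. In WT hilar organoids (mice 1221, 1223 and 1225) it stood at 0.305, 1.24 and 0.126 CPM, and in WT peripheral organoids at 0.588, 0.478 and 0.106 CPM. In Ndr hilar organoids (mice 1219, 1220 and 1224) it stood at 0.290, 9.54 and 4.98 CPM. In Ndr peripheral organoids only mouse 1219 gave a read, 1 count or 0.103 CPM. The libraries of mice 1220 and 1224 were again the highest, and the hilar library of mouse 1219 lay within the WT hilar range. Summed over the group, 115 counts in Ndr hilar stood against 1 count in Ndr peripheral, a ratio of 139 with a 95% counting interval of 24.5 to 5537. That interval covers counting error only. The log2 difference was 6.77 ± 1.497 (SE) between the regions in Ndr organoids and 0.38 ± 1.21 in WT organoids. Between genotypes in hilar organoids it was 3.21 ± 1.13. Leaving out 1 library moved the region difference in Ndr organoids to between 5.91 (without Ndr hilar 1220) and 8.59 (without Ndr peripheral 1219). The region difference in WT organoids changed sign, to -0.75 without WT hilar 1223 and to -0.05 without WT peripheral 1225.

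**Figure D2:**
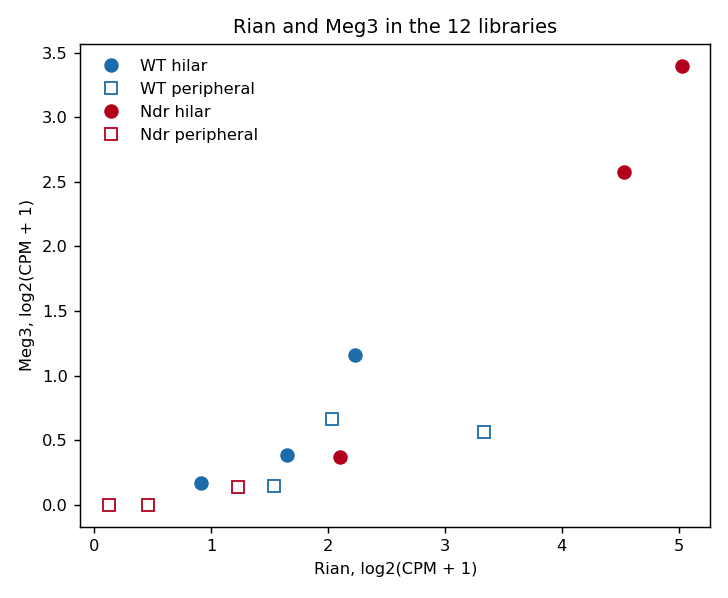
Rian (x axis) against Meg3 (y axis) in the 12 libraries, both as log2(CPM + 1); filled circles are hilar and open squares peripheral organoids, blue WT and red Ndr. The 2 Ndr hilar libraries of mice 1220 and 1224 lie far to the upper right, and the other 10 form a band at or below a Meg3 level of 1.24 CPM.

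Over the 12 libraries, which come from 6 mice and hold few Meg3 reads, Rian and Meg3 had a Pearson r of 0.911 and a Spearman rho of 0.928 on log2 CPM. Of 15013 other tested genes, Meg3 was the second most like Rian by r and the first by rho. The non-member genes most like it by r were Ppp4r4 (0.931), the homeobox transcription factor Prox1 (0.911), Gramd3 (0.909), Gpalpp1 (0.889) and Cpne8 (0.887). The ranks of the other members were 493 for Peg3 (r 0.682), 944 for Igf2 (r 0.616), 5263 for Plagl1 (r 0.189) and 12754 for Grb10 (r -0.494). With both cultures of an animal added together (6 mouse totals), Rian and Meg3 had an r of 0.952 and a rho of 1, and r was 0.93 without mice 1220 and 1225. These values describe the libraries, and no p is given, since the genes were chosen on them.

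Mirg, the downstream host of a microRNA cluster, was close to the detection limit. It gave 1 count in each WT peripheral library, 1 in Ndr hilar 1220 and 2 in Ndr hilar 1224. The other 7 libraries held 0 counts. The largest group sum was 3 counts, and no difference was detectable at this depth.

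Dlk1, the paternally expressed transmembrane protein that can act as a noncanonical Notch ligand, was low in every group. In WT hilar organoids (mice 1221, 1223 and 1225) it stood at 0.244, 2.01 and 0.377 CPM, and in WT peripheral organoids at 1.18, 0.359 and 0.318 CPM. In Ndr hilar organoids (mice 1219, 1220 and 1224) it stood at 0.580, 0.784 and 0.128 CPM, and in Ndr peripheral organoids at 0.207, 0 and 0.0915 CPM. WT and Ndr peripheral organoids did not overlap (20 counts against 3), a pattern that 3.61% of tested genes had. The pooled ratio was 7.01, with a 95% counting interval of 2.08 to 36.8, which covers counting error only. Of the 20 counts, 14 came from mouse 1221. Without that library the ratio was 3.51, with an interval of 0.749 to 21.7. Unlike the 2 noncoding RNAs, its highest library was a WT one.

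The other end of the cluster was looked at after its values were seen. Dio3, the enzyme that inactivates thyroid hormone, stood at 2.13, 7.84 and 4.72 CPM in the Ndr hilar organoids of mice 1219, 1220 and 1224 and at 0.310, 0.189 and 3.11 CPM in their peripheral organoids. Its WT hilar values were 3.35, 0.463 and 1.38 CPM for mice 1221, 1223 and 1225, and its WT peripheral values 1.68, 0.957 and 1.06 CPM. Its antisense neighbour Dio3os stood at 6.77, 17.4 and 17.4 CPM in Ndr hilar and at 1.03, 0.755 and 6.50 CPM in Ndr peripheral organoids. In WT organoids Dio3os reached 7.257 CPM in hilar and 7.655 CPM in peripheral cultures, above the lowest Ndr hilar library. In both genes the hilar culture was higher in each Ndr mouse. Among WT mice it was also higher in 1221 and 1225 for Dio3 and in 1221 for Dio3os. In Dio3os the Ndr hilar and Ndr peripheral groups did not overlap, as in 7.49% of tested genes, and in Dio3 mouse 1224 made them overlap. Neither passed edgeR's quasi-likelihood test in that comparison, with Benjamini-Hochberg adjusted p = 0.505 for Dio3 (log2 difference 2 ± 0.96) and 0.459 for Dio3os (2.31 ± 0.98). The library kit does not mark strand, so reads from parts where the pair overlap cannot be told apart. Rtl1, the retrotransposon-like gene opposite the Meg3 region, gave reads in 1 of 12 libraries.

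Igf2, the fetal growth factor, was present at over 1 CPM in 4 libraries and nearly absent elsewhere. In WT hilar organoids it stood at 19.6 CPM in mouse 1221 but at 0.154 and 0.126 CPM in mice 1223 and 1225. In WT peripheral organoids it stood at 0.924, 0.718 and 0 CPM (mice 1221, 1223 and 1225). In Ndr hilar organoids it stood at 9.57, 26.9 and 1.53 CPM (mice 1219, 1220 and 1224), and all 3 Ndr peripheral libraries held 0 counts. So all Ndr hilar libraries lay above all Ndr peripheral ones, while the WT hilar group was made of 1 high and 2 low libraries. Against a floor of 3 counts over the group, Igf2 was at least 127.7-fold higher in Ndr hilar than in Ndr peripheral organoids. Without the hilar library of mouse 1220 that bound was 63.5-fold. In hilar organoids the group means of Ndr (12.7 ± 12.97 CPM, SD, n = 3) and WT (6.64 ± 11.3) differed by less than the spread between mice. Leaving out WT hilar 1221 turned the region difference in WT organoids from 3.58 to -1.87 on the log2 scale.

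H19, the noncoding RNA that shares its control region with Igf2, was seen in a single library beyond 2 counts. Ndr hilar 1220 gave 25 counts, or 3.27 CPM. The other 11 libraries gave 0 to 2 counts each, at most 0.309 CPM. The other 2 libraries with Igf2 above 2 CPM, WT hilar 1221 and Ndr hilar 1219, gave 2 and 1 counts of H19.

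Peg3, a paternally expressed zinc finger protein, was among the more abundant members and varied widely within each group. In WT hilar organoids it stood at 46.5, 8.96 and 13.4 CPM (mice 1221, 1223 and 1225), and in WT peripheral organoids at 3.45, 24.6 and 6.995 CPM. In Ndr hilar organoids it stood at 47.7, 99.8 and 27.2 CPM (mice 1219, 1220 and 1224), and in Ndr peripheral organoids at 30.5, 0.849 and 2.93 CPM. The hilar culture was higher than the peripheral one in every Ndr mouse, but the groups overlapped, since the lowest hilar library (27.2 CPM) was below the highest peripheral one (30.5 CPM). The log2 difference between regions in Ndr organoids was 2.35 ± 1.16 (SE), and 4.93 without Ndr peripheral 1219. In WT organoids it was 0.997 ± 1.12 and came to -0.01 without WT hilar 1221. Its neighbour Zim1, chosen after its values were seen, gave 25 counts in WT hilar 1221, 21 in Ndr hilar 1219 and 7 in Ndr hilar 1220. The remaining libraries had at most 3 Zim1 counts. These 3 are also the libraries with the highest Peg3 and Igf2. Over the 12 libraries Peg3 and Igf2 had an r of 0.73 and a rho of 0.73, given as a description.

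Plagl1, a paternally expressed zinc finger transcription factor, differed little between groups. Its values ran from 17.6 to 37.7 CPM in WT hilar, from 24.6 to 45.5 CPM in WT peripheral, from 14.02 to 50.7 CPM in Ndr hilar and from 22.5 to 27.9 CPM in Ndr peripheral organoids. Its group means lay between 25.4 ± 2.72 and 36.0 ± 10.6 CPM (SD, n = 3), and the group ranges overlapped in all 6 pairs. The log2 difference between genotypes in hilar organoids was -0.06 ± 0.44 (SE), and -0.78 without Ndr hilar 1220.

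Grb10, an adaptor that binds insulin and IGF receptors and limits their signalling, was higher in the peripheral than in the hilar culture of every Ndr mouse. In WT hilar organoids it stood at 4.33, 2.01 and 4.27 CPM (mice 1221, 1223 and 1225), and in WT peripheral organoids at 20.2, 0.598 and 2.12 CPM. In Ndr hilar organoids it stood at 0.967, 0.392 and 6.00 CPM (mice 1219, 1220 and 1224), and in Ndr peripheral organoids at 2.17, 2.36 and 19.9 CPM. The peripheral culture was higher in each Ndr mouse and in WT mouse 1221, and lower in WT mice 1223 and 1225. The log2 difference, hilar minus peripheral, in Ndr organoids was -1.74 ± 1.30 (SE) and became 0.10 without Ndr peripheral 1224.

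**Figure D3:**
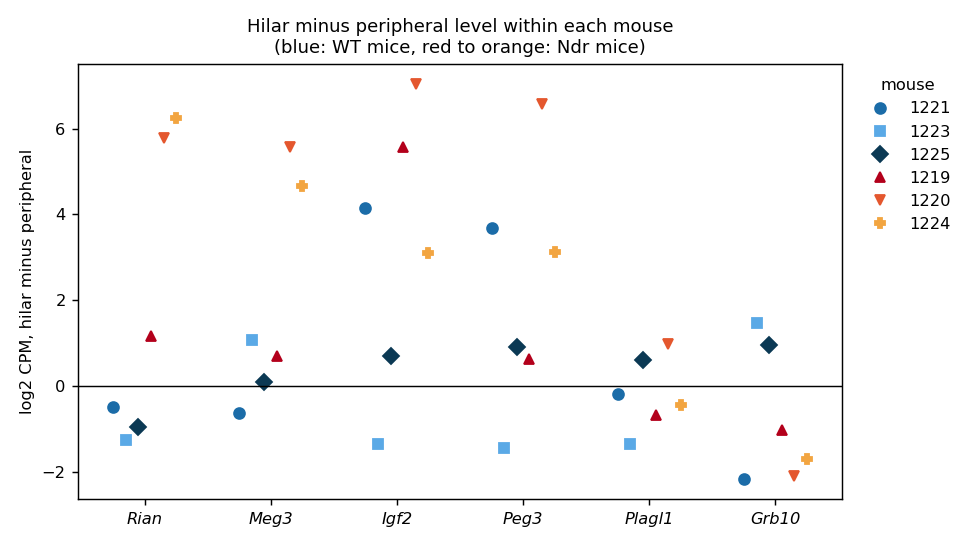
Hilar minus peripheral level within each mouse (log2 CPM with a prior count of 2) for the 6 genes with enough counts; each point is 1 mouse, blue for WT and red to orange for Ndr. For Rian the 3 WT mice lie between -0.50 and -1.25 and the 3 Ndr mice between 1.17 and 6.24.

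Within a mouse, the hilar minus peripheral Rian level was -0.50, -1.25 and -0.96 on the log2 scale in WT mice 1221, 1223 and 1225. It was 1.17, 5.77 and 6.24 in Ndr mice 1219, 1220 and 1224. So the sign differed between the genotypes in all 6 mice. Among the 6 members tested, Rian alone had this pattern, and 0.739% of the 15014 tested genes had it. Meg3, Igf2 and Peg3 were higher in the hilar culture of all 3 Ndr mice but had mixed signs in the WT mice, and Grb10 was lower in the hilar culture of all 3 Ndr mice.

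**Figure D4:**
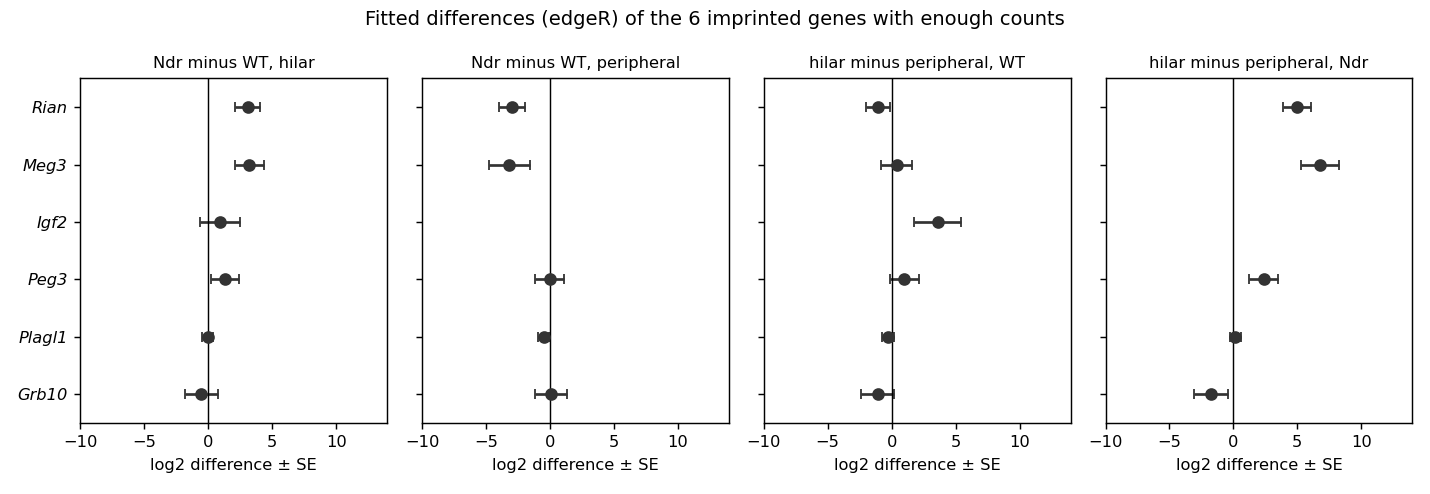
Fitted log2 differences ± SE (edgeR, 12 libraries) of the 6 genes in the 4 simple comparisons. Rian and Meg3 have positive values for Ndr minus WT in hilar organoids (3.09 and 3.21), negative ones in peripheral organoids and their largest values between regions in Ndr organoids (4.97 and 6.77); Igf2 is left out of the 2 panels that use Ndr peripheral organoids, where it had 0 counts.

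Across all genes, edgeR's quasi-likelihood test called 0 of the 6 members and 0% of the 15014 genes at an adjusted p under 0.05 in any of the 6 comparisons over libraries. It also called 0% of 15401 genes between genotypes over mouse totals. Unadjusted p-values under 0.05 numbered 982 for genotype in hilar organoids, 438 for genotype in peripheral organoids, 76 for region in WT organoids, 1548 for region in Ndr organoids, 911 for region over both genotypes, 451 for the interaction and 834 over mouse totals. DESeq2's Wald test called 3 members, Rian, Meg3 and Igf2, between regions of Ndr organoids, where it called 0.51% of 16284 genes. It called 1 member, Rian, for the interaction, where it called 0.0141% of 28375 genes. Since the members were chosen on these contrasts, nothing is read from those calls. Library by library, 3 of the 6 tested members (Rian, Meg3 and Igf2) lay higher in every Ndr hilar than in every Ndr peripheral library, as did 7.49% of tested genes. Rian and Meg3 lay higher in every WT peripheral than in every Ndr peripheral library, as did 3.61% of tested genes; for Meg3 this rested on single reads.

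Proliferation genes stood lower where Rian stood higher among the Ndr organoids. The summed level of the 16 genes of that list was 454.4 to 769.6 CPM in Ndr hilar and 1191 to 2015 CPM in Ndr peripheral organoids, with no overlap. It was 491.1 to 2896 CPM in WT hilar and 999.6 to 1251 CPM in WT peripheral organoids. All 16 genes had a negative difference between the regions of Ndr organoids, with a median of -1.64 against -0.01 for all genes. Of the 16, 0 passed edgeR's adjusted test, 9 had an unadjusted p under 0.05 (against 10.3% of all genes), and DESeq2 called 0. Of the 13 fibroblast and stellate markers, the summed level was 4.836 to 29.0 CPM in Ndr hilar and 0.4715 to 21.59 CPM in Ndr peripheral organoids, so the ranges overlapped. The summed level of 8 fetal liver genes, of which 3 were tested, was 9.962 to 25.02 CPM in Ndr hilar organoids. It was 22.11 to 70.27 CPM in Ndr peripheral organoids, with a small overlap. Hmga2 made up most of it on average. In Ndr hilar 1219 and 1220, though, Hmga2 stood below Gpc3 (3.675 against 5.029 CPM and 5.617 against 12.15 CPM). DESeq2 called Hmga2 between genotypes in hilar organoids, where it called 0.234% of 18387 genes. Hmga2 stood there at 8.502 ± 6.75 CPM in Ndr and 75.8 ± 57.2 CPM in WT (SD, n = 3). The other tested genes of that list were not called. Gpc3 averaged 8.364 CPM in Ndr and 3.58 CPM in WT hilar organoids, and Afp 0.5787 and 2.609 CPM.

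Transcripts of 2 hepatocyte markers, Alb and Ttr, stood high in the Ndr hilar libraries, while Hnf4a did not. Hnf4a averaged 175.3 CPM in Ndr hilar, 237.3 in Ndr peripheral, 178.2 in WT hilar and 208.1 CPM in WT peripheral organoids. The summed level of the 10 hepatocyte markers, most of it the transcription factor Hnf4a, overlapped between groups, at 161.3 to 290.1 CPM in Ndr hilar, 206.3 to 322.2 in Ndr peripheral, 155 to 245.4 in WT hilar and 175.2 to 248 CPM in WT peripheral organoids. Transcripts of 2 secreted liver proteins within it differed. Ttr stood at 24.95, 51.3 and 51.96 CPM in the Ndr hilar organoids of mice 1219, 1220 and 1224 and at 21.4, 8.30 and 4.30 CPM in their peripheral organoids. In the 6 WT libraries Ttr was at most 7.724 CPM. Alb stood at 13.2, 40.9 and 14.7 CPM in the Ndr hilar and at 0.310, 0.377 and 7.59 CPM in the Ndr peripheral organoids of the same mice. For both genes every Ndr hilar library lay above every Ndr peripheral one, as in 7.49% of tested genes. For Ttr the closest values, 24.95 and 21.4 CPM, were both from mouse 1219. In WT hilar organoids Alb stood at 15.9, 0.618 and 0.502 CPM (mice 1221, 1223 and 1225), and in their peripheral organoids at 10.84, 3.588 and 1.696 CPM. The 4 libraries with the highest Alb were thus also the 4 with the highest Igf2. Cps1 was at 0 in every library, Cyp3a11, Cyp2e1, Tat and G6pc were each detected in 1 library, and Apoa1 was at most 0.2066 CPM. DESeq2 called Ttr between genotypes in hilar organoids and over mouse totals, where it called 0.234% and 0.679% of all genes. By contrast, edgeR called 0 of the 3 hepatocyte markers tested. Of the 3, 1 had an unadjusted p under 0.05 between genotypes in hilar organoids, against 6.54% of all genes. Between the regions of Ndr organoids 1 had one, against 10.3% of all genes.

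The 6 mesothelial and neural markers, most of them Msln by level, summed to 107 to 269.8 CPM in Ndr hilar and 360.6 to 602.3 CPM in Ndr peripheral organoids, with no overlap, and to 38.3 to 658.2 CPM over the WT libraries. Wt1, which DESeq2 called over mouse totals with 0.679% of all genes, was at 0 counts in all WT libraries. It stood at 3.869, 1.045 and 1.404 CPM in the Ndr hilar organoids of mice 1219, 1220 and 1224. In their peripheral organoids it stood at 0, 1.415 and 25.98 CPM, so its high level came from 1 library. The 6 immune markers summed to 9.902 to 40.09 CPM over all libraries and overlapped between groups, with Adgre1 and Clec4f at 0 everywhere. The part of any of these genes in the levels of the imprinted genes was not tested. In a bulk library, fewer cells making an RNA and less RNA per cell cannot be told apart.

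Of 54 other imprinted genes listed, 52 were matched and 30 tested. In edgeR 0 passed the adjusted test in any comparison, and DESeq2 called 0 in any comparison. Between the regions of Ndr organoids 2 of the 30 had an unadjusted edgeR p under 0.05, against 10.3% of all tested genes. There 18 of 30 (60%) had a positive difference, against 48.7% of all genes, with a median of 0.07 against -0.01. In hilar organoids 21 of 30 (70%) were higher in Ndr, against 49.5% of all genes, with a median of 0.18 against 0. The 8 most abundant were Igf2r (mean 215 CPM over 12 libraries), the lysosomal sorting receptor that also clears Igf2 protein, H13 (183), the ubiquitin ligase Ube3a (140), Copg2 (106), the potassium channel Kcnq1 (67.9), Blcap (52.0), Trappc9 (43.6) and the noncoding RNA Peg13 (39.9). Kcnq1 had 38.8 ± 11.1 CPM in Ndr hilar and 104 ± 53.8 CPM in Ndr peripheral organoids (SD, n = 3), a log2 difference of -1.42 ± 0.39 with an edgeR adjusted p of 0.418. Igf2r stood at 179 ± 95.2 and 245 ± 145 CPM in the same groups.

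Of 21 listed genes that maintain imprints, 19 were tested, and Dnmt3l and Dppa3 were at 0 in all 12 libraries. Of the 19, 0 passed the adjusted test of edgeR or DESeq2 in any comparison. Unadjusted edgeR p-values under 0.05 numbered 2 between the regions of Ndr organoids, where 10.3% of all genes had one. There 3 of 19 (15.8%) had a positive difference, against 48.7% of all genes, and the median was -0.35 against -0.01. The most abundant were Trim28 (354 CPM), the corepressor recruited by Zfp57 and Zfp445, then the Polycomb subunit Suz12 (136), Zfp445 itself (102) and Ctcf (94.3). Trim28 stood at 341 ± 48.4 CPM in Ndr hilar and 349 ± 54.9 CPM in Ndr peripheral organoids (SD, n = 3). Uhrf1, which brings the methyltransferase Dnmt1 to replicating DNA and follows the cell cycle, was picked after its values were seen. It stood at 14.8 ± 2.48 CPM in Ndr hilar and 57.1 ± 7.26 CPM in Ndr peripheral organoids, a log2 difference of -1.95 ± 0.61 with an edgeR adjusted p of 0.418.

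Genes of the pathways in which Igf2 and Dlk1 act were taken from lists as well. Among 16 genes for IGF receptors, binding proteins and their signalling, 10 were tested and 0 passed in edgeR. Between the regions of Ndr organoids 2 of the 10 had an unadjusted p under 0.05, against 10.3% of all genes. DESeq2 called Irs1 alone, over mouse totals, where it called 0.679% of 18417 genes. The most abundant were the secreted IGF binding proteins Igfbp7 (1082 CPM) and Igfbp4 (964 CPM), with Igf2r the third. Igfbp4 stood at 558 ± 186 CPM in Ndr hilar and 1355 ± 1499 CPM in Ndr peripheral organoids (SD, n = 3), a spread larger than the difference. Among 14 genes of the Notch pathway (ligands, receptors and target genes), 10 were tested and 0 passed in edgeR. An unadjusted p under 0.05 was found for 2 of the 10 between the regions of Ndr organoids, against 10.3% of all genes. DESeq2 called 2 there, the ligand Jag2 and the Notch target Nrarp, named here for that call, both lower in hilar organoids. Over all genes it called 0.51% of 16284 in that comparison. Jag2 stood at 24.8 ± 6.99 CPM in Ndr hilar and 72.6 ± 9.75 CPM in Ndr peripheral organoids (SD, n = 3), and Nrarp at 1.75 ± 0.888 and 5.94 ± 1.97 CPM. Their log2 differences in edgeR were -1.55 ± 0.32 and -1.76 ± 0.44, with an adjusted p of 0.418 for each. Jag1 (123 CPM), Hes1 (105 CPM) and Notch2 (81.9 CPM) were the most abundant, and Jag1 itself stood at 120 ± 59.3, 128 ± 44.9, 142 ± 53.3 and 103 ± 44.8 CPM in WT hilar, WT peripheral, Ndr hilar and Ndr peripheral organoids.

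**Figure D5:**
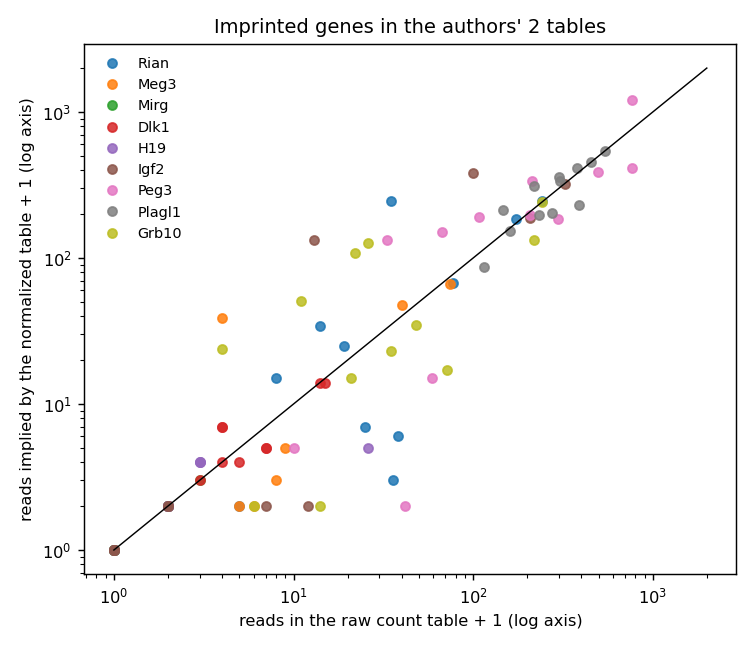
Reads of the 9 imprinted genes in the authors' raw count table (x axis) against the reads implied by their normalized table (y axis), both plus 1 on log axes; each point is 1 gene in 1 library and the line marks equal values. Plagl1 lies near the line, while Rian, Igf2, Meg3 and Grb10 have points far from it on both sides.

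The authors' normalized table held other reads for these genes than their raw table. Divided by 1 size factor per library, 100% of its values came out whole within 0.01, but the recovered reads equalled the raw count in 43.1% of cells. Rian in Ndr hilar 1219 had 34 raw and 243 recovered reads, and in WT hilar 1221 it had 35 raw and 2 recovered reads. In Ndr hilar 1220, with 242 and 246, it was nearly the same in both. Igf2 in Ndr hilar 1224 had 12 raw and 132 recovered reads, Peg3 in Ndr peripheral 1224 had 32 and 131, Grb10 in Ndr hilar 1220 had 3 and 23, and H19 in Ndr hilar 1220 had 25 and 4. No header or label used here records the step between the tables, so all levels above come from the raw counts.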

How the data were processed

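RNA was sequenced from 12 cultures with a TruSeq RNA v2 kit, per the labels' protocols. The raw counts per gene that the authors deposited were, per the submitters' processing notes, made by featureCounts with the GRCm39 build. Aligner, annotation release and strand setting are not stated in the sources read, so reads of overlapping genes are uncertain: Igf2 with Igf2os and the protein-coding Gm49394, Meg3 with Gm26906, Rian with Gm26945, and Rian, Meg3, Mirg and H19 with the small RNAs they host. The authors also deposited a normalized table (signal), and DESeq2 1.34.0 is named in the submitters' processing notes.

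Symbols came from GENCODE M21, used for names only (52093 of 53700 IDs matched). The quasi-likelihood test of edgeR 4.0.16 (R 4.3.3; robust fit, TMM scaling, low counts removed by filterByExpr) was run with 1 coefficient per group over 12 libraries and 8 residual degrees of freedom; 28444 genes had at least 1 count and 15014 were tested. Genotype over both regions was fitted on the 6 mouse totals (15401 genes, 4 residual degrees of freedom). CPM uses TMM-scaled library sizes, logarithms a prior count of 2, and adjusted p-values (Benjamini-Hochberg) a threshold of 0.05. The replicates are separate mice; an exact permutation test of 3 against 3 cannot go below p = 0.1. The scripts were tested on simulated data.

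The members and gene lists were chosen with earlier results of these data known. Of 187 list symbols, 185 matched. The named genes were all members, any listed gene past the threshold in edgeR, the 8 most abundant other imprinted genes, the 4 most abundant imprint maintenance genes, the 3 most abundant of the Igf2 and of the Notch partners, and the 5 other genes most like Rian. Outside this rule, and chosen after their values were seen, are the genes marked so in the text. Also outside it are those named because DESeq2 called them (Jag2, Nrarp, Irs1, Ttr, Hmga2 and Wt1). The same holds for genes named as markers or from the same lists (such as Alb, Hnf4a, Col1a1, Rgs5, Krt8, Gpc3 and Afp). Hilar and peripheral cultures pair by animal; the correlation of their deviations from the group means was 0.14, -0.34 and -0.314 for mice 1224, 1220 and 1219, and 0.333, 0.45 and -0.062 for mice 1221, 1225 and 1223. Alternatives were DESeq2 1.42.0, other normalization and filters, the mouse as a block, the derivation date, the counts recovered from the normalized table and leaving out each library.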

Additional observations from a re-analysis of the deposited data

Results flagged for a closer look

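Rian was singled out because its hilar minus peripheral level had opposite signs in the genotypes: negative in all 3 WT mice and positive in all 3 Ndr mice. The mean over Ndr mice was 4.4 and the mean over WT mice -0.9 on the log2 scale, a gap of 5.3. This difference was not tested here, because Rian was chosen on these values. The smallest of the Ndr values, 1.17 in mouse 1219, lay nearer to the WT values than to the other 2 Ndr mice.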

How the results depend on the processing

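edgeR called 0 genes in each of the 7 comparisons. DESeq2's Wald test called 43 genes for genotype in hilar and 10 in peripheral organoids, 83 for region in Ndr organoids, 2 for region over both genotypes, 4 for the interaction and 125 over mouse totals. On the reads recovered from the normalized table, edgeR tested 15377 genes over libraries. It called 1514 of them for genotype in hilar and 126 in peripheral organoids, and 5 and 30 for region in WT and Ndr organoids. Over mouse totals it called 6753 of 15698 genes. The members among these were Rian and Meg3 (genotype, hilar), Meg3 (region, Ndr), and Meg3, Dlk1 and Plagl1 (mouse totals). With calls this common over mouse totals and members chosen on these data, nothing is read from the members called. On the raw counts over mouse totals, edgeR called 5 with no filter on low counts, none of them a member. With the derivation date as a factor, that contrast rests on mice 1224 and 1225 alone, so its count of calls is not given. Leaving out 1 library gave 0 to 2 calls for genotype in peripheral organoids and 0 to 7 for region in Ndr organoids, both highest without Ndr peripheral 1219. Leaving out 1 mouse gave 0 to 4 over mouse totals, highest without mouse 1219. No member was among those calls. With the mouse as a replicate block the paired fits called 0 genes in all 4 region and interaction comparisons, as did the unpaired ones, so the block changed no call. Of 540 recomputed member log2 differences 38 changed sign, 0 of them for Rian. Rian, Meg3 and Igf2 are limited by depth in Ndr peripheral organoids, where they gave 18, 1 and 0 counts. Correlations of Mirg, Dlk1 and H19 with other members over mouse totals were not computed, since 4 or more totals had fewer than 10 counts.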

Other observations

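The hilar Ndr library of mouse 1220 was the highest of the 12 in 6 of the 9 imprinted genes: Rian, Meg3, H19, Igf2, Peg3 and Plagl1. It was also the highest in 8 of the 30 other imprinted genes tested and in 16.8% of all tested genes. The 3 remaining members had their highest values elsewhere: Mirg in Ndr hilar 1224, Grb10 in WT peripheral 1221 and Dlk1 in WT hilar 1223. Cdkn1c, an imprinted cell cycle inhibitor made from the maternal allele and looked at after its values were seen, stood at 15.2 CPM in Ndr hilar 1220. In the other 11 libraries it was between 1.914 and 4.904 CPM.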
